A study of Mus musculus with 24 samples.

Results

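The cytochrome P450 genes of the mouse were examined in whole liver, in sorted liver endothelial cells (ECs) and in sorted liver macrophages. Members were all genes of the liver count table whose symbol has the form of a P450 gene (Cyp, a family number, a subfamily letter and a gene number). This gave 99 genes of the 48820 entries in the table, 49 of them in family Cyp2, 20 in Cyp4 and 9 in Cyp3. The liver libraries came from 12-week-old mice (C57BL/6 in the labels, C57BL/6J in the study's methods), 3 controls and 3 *Gdf2/Bmp10* HSC-KO mice (floxed alleles of both genes, fl/fl, with *Lrat* Cre, given as Bmp9/10-HSC-KO in the labels), in which Cre driven by the *Lrat* promoter removes BMP9 and BMP10 from hepatic stellate cells (HSCs). ECs (sorted as CD45- CD31+) and macrophages (sorted as CD45+ Ly6C- F4/80+ CD64+) came from mice of the same 2 genotypes at 8 to 10 weeks, 3 libraries per group and cell type. A further 6 macrophage libraries compared Smad4FF mice with Smad4FF cKO mice of that age, *Smad4* fl/fl with *Vav1* Cre per the study. *Smad4* encodes a transducer of BMP signals, and *Vav1* is active throughout blood cells and not in macrophages alone. The sample codes B26-WT, B5-KO and B27-KO occur in both the EC and the *Gdf2/Bmp10* macrophage sets, so the 2 sets may share mice. The 4 tables were fitted separately, and values within a group are given in the order of replicates 1, 2 and 3.

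P450s are heme enzymes that insert an oxygen atom into their substrates, and most of them sit in the endoplasmic reticulum and take electrons from P450 oxidoreductase. In liver they are largely hepatocyte genes: families 1 to 3 oxidise drugs and toxins, family 4 hydroxylates fatty acids, and several single genes build bile acids or clear retinoic acid. Many are zonated, with *Cyp2e1* and *Cyp1a2* around the central vein, where Wnt signals from ECs are high, and *Cyp2f2* around the portal vein. Others are set by nuclear receptors (CAR, PXR, PPARα), by the aryl hydrocarbon receptor, or by the sex-specific pattern of growth hormone.

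Libraries held 73941995 to 104087482 counts in liver, 66694659 to 87879751 in ECs, 60911527 to 93926928 in *Gdf2/Bmp10* macrophages and 79290188 to 110879155 in the *Smad4* set. Expression is given as CPM, each gene's count scaled to the size of its library after TMM normalisation. *Gdf2*, which encodes BMP9, had 18.4, 9.38 and 22.5 CPM in control livers and 3.85, 2.12 and 2.63 CPM in HSC-KO livers, and *Bmp10* had 3.28, 2.72 and 1.99 and 0.0938, 0.262 and 0.111 CPM. *Smad4* had 40.1, 35.3 and 42.8 CPM in Smad4FF macrophages and 17.2, 12.6 and 15.4 CPM in Smad4FF cKO macrophages. Of the 6 livers, 5 had 31392 to 54369 counts of *Xist* and 0 counts of 4 Y-linked genes, whereas HSC-KO replicate 3 had 12 *Xist* counts and 8818 Y-linked counts. Both kinds of library occurred in each group of ECs and of *Gdf2/Bmp10* macrophages, and all 6 *Smad4* libraries had Y-linked counts. In liver the summed level of 12 hepatocyte markers was 137358 to 165501 CPM in controls and 177623 to 229932 CPM in HSC-KO mice, while 9 of 12 macrophage markers fell. Stellate cell markers summed to 253 to 339 and 443 to 494 CPM, and cholangiocyte markers to 55.2 to 84 and 26.1 to 36.1 CPM, neither overlapping. Endothelial markers summed to 456 to 548 and 400 to 473 CPM, which overlapped. Without overlap, *Stab2* (86.0–116 to 9.62–12.7 CPM), *Lyve1*, *Tek* and *Eng* were lower. *Pecam1* (30.7–37.3 to 58.9–77.6 CPM), *Cdh5*, *Tie1*, *Erg*, *Robo4* and *Esam* were higher without overlap. The part of these cells in the liver changes was not tested. In whole liver, fewer cells of a type and less RNA per cell cannot be told apart.

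*Cyp2e1*, the most abundant P450 of control liver, fell in *Gdf2/Bmp10* HSC-KO mice, as did several less abundant members. A differentially expressed gene (DEG) is one with a Benjamini-Hochberg adjusted p below 0.05 over all genes tested in edgeR's quasi-likelihood test and an absolute log2 fold change above 1. In liver 74 members could be tested, and 10 were DEGs, 9 lower and 1 higher (13.5%), where 2.48% of the 17118 genes tested were DEGs (1.45% lower, 1.03% higher). The members' median log2 fold change was -0.15, and that of all genes tested was -0.01. The 3 control and 3 HSC-KO values did not overlap for 24 of the 74 members (32.4%), against 19.7% of all genes. On adjusted p alone, 11 members passed, against 2.83% of all genes. The fit was repeated without HSC-KO replicate 3, which was singled out with its P450 levels known and alone had Y-linked counts. In that fit 12 members were DEGs (2.53% of all genes), 36 of the 74 had an unadjusted p below 0.05 (14.2% of all genes) against 23 with all 6 livers (12.9% of all genes), and 9 members were DEGs in the same direction in both fits, 8 lower and 1 higher. Over all genes 1.99% were called in both fits (1.13% lower, 0.859% higher). The 8 were *Cyp2e1*, *Cyp1a2*, *Cyp2a5*, *Cyp2c37*, *Cyp2c38*, *Cyp4a10*, *Cyp4a14* and *Cyp4b1*, and the 1 that rose was *Cyp2c55*. When another liver was left out instead, 7, 7 and 6 members were DEGs without control 1, 2 and 3 (1.51%, 1.06% and 1.1% of all genes), and 7 and 7 without HSC-KO 1 and 2 (1.07% and 1.71%). *Cyp2e1*, *Cyp2a5*, *Cyp2c38*, *Cyp4a14* and *Cyp4b1* were DEGs whichever library was removed.

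The share of all liver counts that fell on the 99 P450 genes was 2.41%, 3.01% and 2.67% in controls and 1.73%, 1.70% and 1.79% in HSC-KO mice, with no overlap. Without *Cyp2e1* the shares were 1.85%, 2.53% and 2.17% against 1.68%, 1.65% and 1.69%, which also did not overlap. *Cyp2e1* took the largest share of the P450 counts in each control, 23.3%, 15.8% and 18.7%, and 3.06%, 2.68% and 5.82% in HSC-KO livers. There the first place was taken by *Cyp2f2* in replicate 1 (10.7%) and by *Cyp3a11* in replicates 2 and 3 (10.8% and 20.6%). Per kilobase of exon, *Cyp2e1* ranked 1 of the members in control liver with 2282 CPM per kb and 7 in HSC-KO liver with 326 CPM per kb (12 with 237 CPM per kb without replicate 3). *Cyp2f2* moved from rank 6 (454 CPM per kb) to rank 1 (974 CPM per kb), *Cyp1a2* from 10 to 29 and *Cyp2c37* from 12 to 26.

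**Figure D1:**
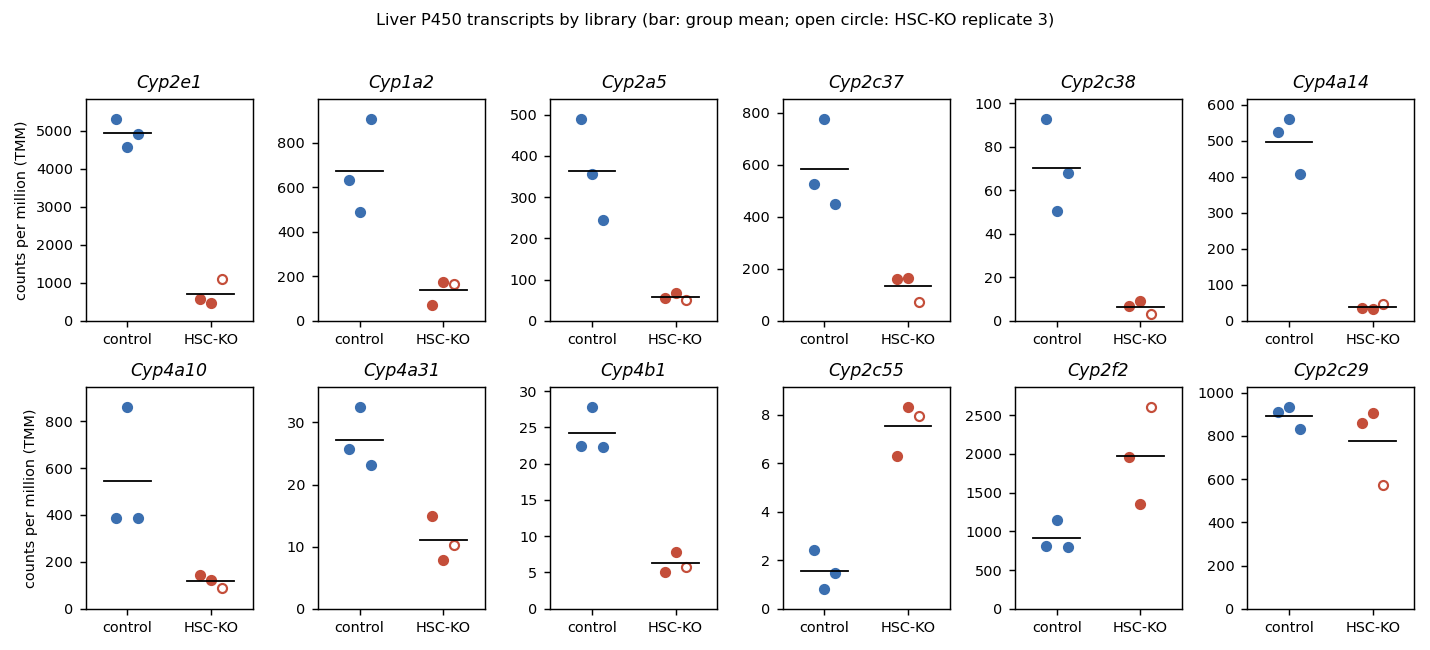
Level of 12 P450 transcripts in each liver (y axis: CPM after TMM scaling, from 0; x axis: control and HSC-KO mice; points: libraries; bars: group means; open circle: HSC-KO replicate 3). The 3 HSC-KO points of *Cyp2e1*, at 461 to 1086 CPM, all lie under its controls, at 4569 to 5294 CPM, whereas those of *Cyp2c29* partly overlap.

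The promoters of the 4 pericentral P450s that fell, *Cyp2e1*, *Cyp1a2*, *Cyp2a5* and *Cyp2c37*, are shown because these genes share a liver zone. Beside them stand near-copies of *Cyp2a5* and *Cyp2c37*, which did not fall, and *Cyp2c38*, which fell and lies in the locus of *Cyp2c37* but is not on the pericentral list. Each sequence is the 250 bases before the RefSeq start site on GRCm38.p6, 5′ to 3′ on the gene's own strand. Capitals mark CTTTGA or its reverse complement TCAAAG (the core bound by TCF/LEF factors of the Wnt pathway) and TATAAA within 40 bases of the start. The windows are chr7:140763569-140763818 (+) for *Cyp2e1*, chr9:57683656-57683905 (-) for *Cyp1a2*, chr7:26835089-26835338 (+) for *Cyp2a5*, chr7:26306942-26307191 (+) for its near-copy *Cyp2a4*, chr19:39992174-39992423 (+) for *Cyp2c37*, chr19:40089429-40089678 (+) for its near-copy *Cyp2c50* and chr19:39463076-39463325 (-) for *Cyp2c38*.
Cyp2e1: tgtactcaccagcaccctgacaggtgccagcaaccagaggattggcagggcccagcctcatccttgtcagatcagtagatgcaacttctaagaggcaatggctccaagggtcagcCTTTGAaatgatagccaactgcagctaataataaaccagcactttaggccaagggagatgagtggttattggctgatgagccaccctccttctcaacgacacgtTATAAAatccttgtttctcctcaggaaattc
Cyp1a2: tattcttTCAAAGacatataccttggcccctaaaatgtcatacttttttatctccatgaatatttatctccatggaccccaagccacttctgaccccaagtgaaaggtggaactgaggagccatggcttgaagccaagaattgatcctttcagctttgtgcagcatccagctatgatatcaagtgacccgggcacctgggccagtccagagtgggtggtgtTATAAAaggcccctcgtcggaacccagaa
Cyp2a5: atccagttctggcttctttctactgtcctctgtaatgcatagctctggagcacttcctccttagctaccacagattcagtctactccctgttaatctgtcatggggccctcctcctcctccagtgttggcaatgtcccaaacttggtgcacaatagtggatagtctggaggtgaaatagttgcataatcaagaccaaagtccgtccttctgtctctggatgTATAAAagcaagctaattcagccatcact
Cyp2a4: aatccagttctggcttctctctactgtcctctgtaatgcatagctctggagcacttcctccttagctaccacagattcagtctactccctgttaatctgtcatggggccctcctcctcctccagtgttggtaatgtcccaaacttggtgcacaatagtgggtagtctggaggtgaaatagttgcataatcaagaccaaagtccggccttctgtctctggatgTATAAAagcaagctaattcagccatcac
Cyp2c37: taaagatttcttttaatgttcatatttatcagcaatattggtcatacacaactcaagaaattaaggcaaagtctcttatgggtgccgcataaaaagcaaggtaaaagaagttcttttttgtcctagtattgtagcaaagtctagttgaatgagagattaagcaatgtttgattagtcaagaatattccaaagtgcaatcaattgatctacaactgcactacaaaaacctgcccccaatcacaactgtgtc
Cyp2c50: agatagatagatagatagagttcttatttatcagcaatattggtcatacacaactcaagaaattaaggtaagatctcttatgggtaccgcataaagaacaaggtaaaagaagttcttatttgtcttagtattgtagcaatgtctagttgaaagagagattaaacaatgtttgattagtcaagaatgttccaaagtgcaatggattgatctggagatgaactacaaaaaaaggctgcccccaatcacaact
Cyp2c38: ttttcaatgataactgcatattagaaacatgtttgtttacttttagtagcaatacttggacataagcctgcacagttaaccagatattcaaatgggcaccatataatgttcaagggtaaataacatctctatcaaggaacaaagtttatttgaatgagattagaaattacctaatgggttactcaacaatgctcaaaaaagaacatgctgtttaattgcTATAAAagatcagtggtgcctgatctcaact

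The letters CTTTGA or TCAAAG lay 135 bases before the start of *Cyp2e1* and 243 bases before that of *Cyp1a2*, and the windows of the other 5 shown did not hold them. They also lay before pericentral P450s that did not fall, 118 and 46 bases before the start of *Cyp2c29* and 169 bases before that of *Cyp3a11*. Among the 76 members with a RefSeq promoter, 16 (21.1%) held these letters within their 250 bases, against 14.05% of 27025 promoters. TATAAA, read on the gene's strand, was in 21 members (27.6%) and in 8.12% of all promoters, and stood 28 to 31 bases before the start in *Cyp2e1*, *Cyp1a2*, *Cyp2a5*, *Cyp2a4* and *Cyp2c38*. A match of letters is a description of the sequence and not a binding site.

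Of 9 pericentral P450s, all tested, 4 fell and 5 were not DEGs, and the 4 held without HSC-KO replicate 3. Over all genes 1.45% were called lower, and 1.13% in both fits. The list was chosen with earlier results of these data known. *Cyp2e1* (chr7:140763739-140774987), which oxidises ethanol and acetaminophen, had 5294, 4569 and 4908 CPM in controls and 563, 461 and 1086 CPM in HSC-KO livers. Every HSC-KO value was far under every control, with replicate 3 the highest of the 3, and the log2 fold change was -2.81 ± 0.32 (SE; adjusted p = 0.00567) and -3.27 without replicate 3 (adjusted p = 5.89e-04). *Cyp1a2* (chr9:57676937-57683703), which metabolises caffeine and aromatic amines, had 631, 488 and 905 CPM and 71.9, 176 and 163 CPM. Its groups did not overlap (log2 fold change -2.30 ± 0.38 (SE), adjusted p = 0.0223), but the adjusted p rose to 0.0696, 0.0502 and 0.0832 when control 1, 2 or 3 was left out.

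*Cyp2a5* (chr7:26835305-26843548), the coumarin hydroxylase, had 489, 356 and 244 CPM in controls and 54.8, 66.5 and 50 CPM in HSC-KO livers, a clear gap with the 3 HSC-KO livers close together (log2 fold change -2.67 ± 0.27 (SE), adjusted p = 0.00300). Its near-copy *Cyp2a4*, a female-biased steroid hydroxylase whose aligned coding sequence is 98.45% identical and whose promoter is 97.61% identical, had 731, 663 and 719 CPM and 1335, 1015 and 1.37 CPM. The 2 HSC-KO livers with *Xist* counts were thus above the controls for *Cyp2a4* while all 3 were below them for *Cyp2a5*. When the counts of both were summed, the log2 fold change was -0.34 (adjusted p = 0.934), and how reads were divided between the copies was not tested.

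The remaining pericentral members split by gene. *Cyp2c37*, an arachidonic acid hydroxylase, had 526, 774 and 451 CPM in controls and 162, 166 and 72.7 CPM in HSC-KO livers, with no overlap (log2 fold change -2.13 ± 0.35 (SE), adjusted p = 0.0230). This call was lost in 5 of 6 fits that left out 1 library: adjusted p was 0.0657, 0.0814 and 0.0593 without control 1, 2 and 3, and 0.078 and 0.0511 without HSC-KO 1 and 2. *Cyp2c50*, with 96.12% identity to *Cyp2c37* over the aligned coding sequence, had 622, 599 and 709.5 CPM and 461, 280.5 and 723 CPM, and *Cyp2c54* had 215, 323 and 315 CPM and 232, 136 and 311 CPM. Both overlapped, and the sum of the 3 near-copies gave a log2 fold change of -0.83 (adjusted p = 0.142). *Cyp2c29*, a major hepatic Cyp2c enzyme, had 908, 932 and 833 CPM and 859, 904 and 571 CPM (log2 fold change -0.20 ± 0.19 (SE), adjusted p = 0.772). *Cyp3a11*, the main drug-metabolising Cyp3a of mouse liver, had 1653, 1040.3 and 1754 CPM and 1682, 1856 and 3836 CPM, with replicate 3 the highest of all 6 (log2 fold change 0.73 ± 0.35 (SE), adjusted p = 0.453). *Cyp7a1* is described with the bile acid genes. The summed level of the 9 genes was 10377, 9174 and 10153 CPM in controls and 4182, 4213 and 6886 CPM in HSC-KO livers.

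*Cyp2f2*, the periportal P450 that activates naphthalene, had 805, 1150.2 and 801 CPM in controls and 1966, 1349 and 2602 CPM in HSC-KO livers. All 3 HSC-KO values were above all 3 controls, but it was not a DEG (log2 fold change 1.10 ± 0.26 (SE), adjusted p = 0.0848; without replicate 3 0.85, adjusted p = 0.126). DESeq2 called it in all 6 livers (1.11, adjusted p = 3.48e-04).

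In the Cyp2c locus on chromosome 19 (chr19:39007019-40187333, 14 members, 12 tested), neighbours moved in different directions. *Cyp2c38* (chr19:39389556-39463075), an arachidonic acid epoxygenase, had 92.7, 50.7 and 67.8 CPM in controls and 6.63, 9.28 and 3.27 CPM in HSC-KO livers, the HSC-KO values all being a small part of the lowest control (log2 fold change -3.46 ± 0.40 (SE), adjusted p = 0.00586). Its neighbour *Cyp2c39* had 5.60, 7.81 and 6.28 CPM and 3.15, 4.83 and 0 CPM, which did not overlap but gave no call (log2 fold change -1.30 ± 1.12 (SE), adjusted p = 0.734). *Cyp2c55* (chr19:39007019-39042693), a fatty acid hydroxylase inducible through CAR and PXR, rose from 2.42, 0.808 and 1.47 CPM to 6.31, 8.30 and 7.94 CPM (log2 fold change 2.25 ± 0.39 (SE), adjusted p = 0.0261). It was the only member called higher, it was low in every library, and its call was lost without control 3 (adjusted p = 0.117), HSC-KO 1 (0.078) or HSC-KO 2 (0.0767), or with a replicate block (0.0676). *Cyp2c70*, which makes muricholic acids, had 589.6, 512 and 667 CPM and 882, 743 and 725 CPM, not overlapping and not called (log2 fold change 0.41 ± 0.15 (SE), adjusted p = 0.296). *Cyp2c44*, an epoxygenase encoded outside this locus, had 289, 281 and 303 CPM and 454, 413 and 442 CPM, and its adjusted p of 0.0477 passed with a log2 fold change of 0.58, under the fold threshold.

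In family Cyp4, *Cyp4a10*, *Cyp4a14*, *Cyp4a31* and *Cyp4b1* fell. Of the 4 PPARα targets *Cyp4a10*, *Cyp4a14*, *Cyp4a31* and *Cyp4a32*, 3 fell (1.45% of all genes), 2 of them in both fits (1.13% of all genes). The summed level of the 4 was 958, 1483 and 845 CPM in controls and 212, 181 and 177 CPM in HSC-KO livers. *Cyp4a14* (chr4:115486200-115496142) had 523, 559 and 407 CPM and 34.3, 32.4 and 47.1 CPM, the largest fold change among the members called lower with all 6 livers (log2 fold change -3.71 ± 0.22 (SE), adjusted p = 3.48e-04; without replicate 3 -3.90, adjusted p = 5.89e-04). *Cyp4a10* (chr4:115518264-115533649) had 389, 859 and 385 CPM and 142, 123 and 90.6 CPM, with control 2 highest (log2 fold change -2.20 ± 0.35 (SE), adjusted p = 0.0207). Its call was lost without HSC-KO 1 (adjusted p = 0.0759) or HSC-KO 2 (0.0708).

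*Cyp4a31* had 25.8, 32.4 and 23.2 CPM and 15, 7.87 and 10.2 CPM without overlap (log2 fold change -1.30 ± 0.25 (SE), adjusted p = 0.0392), but did not pass without control 1, 2 or 3 (adjusted p = 0.108, 0.152 and 0.0971) or without HSC-KO 2 or 3 (0.0883 and 0.0826), with a replicate block (0.0893) or with an *Xist* covariate (0.0803). *Cyp4a32* had 21.1, 32.3 and 30.1 CPM and 20.1, 16.9 and 29.6 CPM, and the groups overlapped (log2 fold change -0.33 ± 0.24 (SE), adjusted p = 0.680). *Cyp4a10*, *Cyp4a31* and *Cyp4a32* are near-copies, and the sum of their counts kept a log2 fold change of -1.98 (adjusted p = 0.0199). *Ppara* itself had 67.7, 72.6 and 106 CPM in controls and 59.1, 64.3 and 58.5 CPM in HSC-KO livers and was not a DEG (adjusted p = 0.361).

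*Cyp4b1* (chr4:115624725-115647723), which lies at the end of the same locus and hydroxylates medium-chain fatty acids and some protoxins, had 22.5, 27.8 and 22.3 CPM in controls and 5.09, 7.87 and 5.78 CPM in HSC-KO livers. The groups were well separated and tight (log2 fold change -1.95 ± 0.20 (SE), adjusted p = 0.00305). In control ECs its mean was 79.2 times that in control liver, beside a median of 31.6 for 12 endothelial markers. These sets were normalised separately. Whether ECs carried the liver fall was not tested for *Cyp4b1*. Its promoter, chr4:115647722-115647971 (-) on GRCm38.p6, is shown since the gene also fell in sorted ECs. The letters CTTTGA, in capitals, stand 137 bases before the start.
Cyp4b1: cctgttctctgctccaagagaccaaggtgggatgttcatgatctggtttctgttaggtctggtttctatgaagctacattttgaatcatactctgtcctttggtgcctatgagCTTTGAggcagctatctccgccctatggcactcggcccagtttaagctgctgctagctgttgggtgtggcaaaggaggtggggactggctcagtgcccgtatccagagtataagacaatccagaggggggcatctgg

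Of 7 tested members of subfamily Cyp4f, 8 of Cyp3a and 7 of Cyp2d, 0 were DEGs by edgeR's quasi-likelihood test in the 6 livers. At an unadjusted p below 0.05 there were 0, 2 and 2 (12.9% of all genes), and DESeq2 called 0, 0 and 1 (4.07% of all genes), the last being *Cyp2d40*. *Cyp4f14*, for example, had 414, 345 and 454 CPM and 462, 419 and 359 CPM (log2 fold change 0.03 ± 0.16 (SE), adjusted p = 0.971). *Cyp2d26* had 949.8, 1011 and 943 CPM and 802, 736 and 735 CPM, slightly lower without overlap (log2 fold change -0.35 ± 0.12 (SE), adjusted p = 0.236). *Cyp2j5*, an arachidonic acid epoxygenase, had 503, 544 and 649 CPM and 544, 579.7 and 612 CPM, which overlapped throughout (log2 fold change 0.03 ± 0.14 (SE), adjusted p = 0.963). The long-chain hydroxylase *Cyp2u1* had 9.05, 6.09 and 4.38 CPM and 19.2, 10.1 and 22.3 CPM, higher in all 3 HSC-KO livers, and was not a DEG with edgeR (log2 fold change 1.40 ± 0.36 (SE), adjusted p = 0.107), while DESeq2 called it (1.41, adjusted p = 9.61e-04).

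The P450s of bile acid and sterol metabolism gave 0 DEGs among 6 tested in the 6 livers with edgeR and 0 with DESeq2. At an unadjusted p below 0.05 there were 2, *Cyp7a1* and *Cyp39a1* (12.9% of all genes). *Cyp7a1*, the rate-limiting enzyme of bile acid synthesis, had 38.3, 92.2 and 33.5 CPM in controls and 97.4, 166 and 72.6 CPM in HSC-KO livers. Replicate 2 was highest in both groups and the groups overlapped (log2 fold change 1.04 ± 0.44 (SE), adjusted p = 0.386; with a replicate block 1.10, adjusted p = 0.0299). *Cyp8b1*, which directs synthesis to cholic acid, had 196, 501 and 353 CPM and 333, 350.4 and 482 CPM (log2 fold change 0.15 ± 0.32 (SE), adjusted p = 0.919).

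*Cyp27a1*, the mitochondrial sterol hydroxylase of the acidic pathway, had 419, 408 and 484 CPM and 303, 249 and 507 CPM, the 2 HSC-KO livers with *Xist* counts being under every control and replicate 3 above them (log2 fold change -0.31 ± 0.26 (SE), adjusted p = 0.726; without replicate 3 -0.66, adjusted p = 0.0814). *Cyp39a1*, an oxysterol hydroxylase, had 38.4, 35.9 and 31.2 CPM and 23.4, 17.4 and 26.6 CPM, lower without overlap but not called (log2 fold change -0.65 ± 0.18 (SE), adjusted p = 0.133). *Cyp46a1*, the cholesterol hydroxylase best known from brain, was low, at 1.70, 2.79 and 0.909 CPM and 0.724, 1.12 and 1.71 CPM. *Cyp7b1*, the sixth, is male-biased and is given with the sex-biased genes.

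The 3 retinoic acid hydroxylases gave 0 DEGs with edgeR and with DESeq2, and 0 had an unadjusted p below 0.05. *Cyp26a1* had 2.95, 9.12 and 11 CPM in controls and 8.05, 11.4 and 11.3 CPM in HSC-KO livers, and *Cyp26b1* had 0.969, 42.2 and 42.9 and 15.7, 22.7 and 13.1 CPM, with control 1 far under every other library. *Cyp2r1*, the vitamin D hydroxylase of liver, had 10.3, 9.75 and 11 and 10.9, 12.8 and 14 CPM (log2 fold change 0.28 ± 0.15 (SE), adjusted p = 0.503). *Cyp17a1*, the only one of 6 steroidogenic members with enough counts to test, had 74.1, 347 and 141 and 229.7, 338 and 4.72 CPM, with replicate 3 under all others. *Cyp1a1*, the classic target of the aryl hydrocarbon receptor, had 0.625, 0.534 and 1.98 and 0.911, 2.20 and 4.69 CPM, overlapping, beside the fall of its chromosomal neighbour *Cyp1a2* (log2 fold change 1.31 ± 0.71 (SE), adjusted p = 0.522).

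Among 5 targets of CAR and PXR, *Cyp2c55* rose (1.03% of all genes were called higher) and 4 were not DEGs. *Cyp2b10*, the standard CAR target, had 10.7, 30.6 and 9.32 CPM in controls and 24.4, 61.4 and 5.64 CPM in HSC-KO livers, with both extremes in HSC-KO mice (log2 fold change 0.85 ± 0.79 (SE), adjusted p = 0.759). Of 23 tested regulators of P450 genes only *Nr1i3*, which encodes CAR, was a DEG (2.48% of all genes). It had 301, 409.6 and 332 CPM and 110.2, 93.2 and 88.5 CPM, lower in all 3 HSC-KO livers (log2 fold change -1.84 ± 0.17 (SE), adjusted p = 0.00208), and held without replicate 3. *Nr1i2*, which encodes PXR, had 60, 87.6 and 106 and 98.5, 70.6 and 69.2 CPM, and *Hnf4a* had 787, 530.0 and 754 and 816, 541 and 853 CPM, both overlapping. *Ahr* had 34.4, 42.7 and 54.9 and 17.9, 27.6 and 19.4 CPM, lower without overlap (log2 fold change -1.02 ± 0.22 (SE), adjusted p = 0.0630). Of 19 redox partners and enzymes of heme metabolism, *Hmox1* and *Blvrb*, which act in turn in heme breakdown, fell (1.45% of all genes were called lower). The electron donor *Por* had 202, 265 and 338 and 241, 276 and 191 CPM and overlapped. Macrophages also express *Hmox1*, and macrophage markers fell in these livers from 380–638 to 88.2–135 CPM (9 of 12 lower): their part in the fall of *Hmox1* was not tested.

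Sex-biased P450s set HSC-KO replicate 3 apart from the other 5 livers. Levels of this kind were among the reasons for leaving that library out, so the values are a description and no independent evidence. The 8 genes of the female-biased list summed to 2974, 8265 and 5874 CPM in controls and 3371, 3361 and 10.9 CPM in HSC-KO mice. The 4 of the male-biased list (*Cyp2d9*, *Cyp4a12a*, *Cyp4a12b* and *Cyp7b1*) summed to 79.8, 36.4 and 62.5 CPM and 9.35, 11.4 and 1308 CPM. Replicate 3 thus held nearly no female-type and much male-type P450 RNA. In that library *Cyp2b9* had 0.460 CPM, *Cyp2b13* 0.223, *Cyp2a4* 1.37, *Cyp3a16* 0, *Cyp3a41a* 0.0696, *Cyp3a41b* 1.63, *Cyp3a44* 0.822 and *Cyp2c69* 6.35 CPM. *Cyp4a12b* had 0 counts in the other 5 livers and 44.1 CPM in replicate 3.

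**Figure D2:**
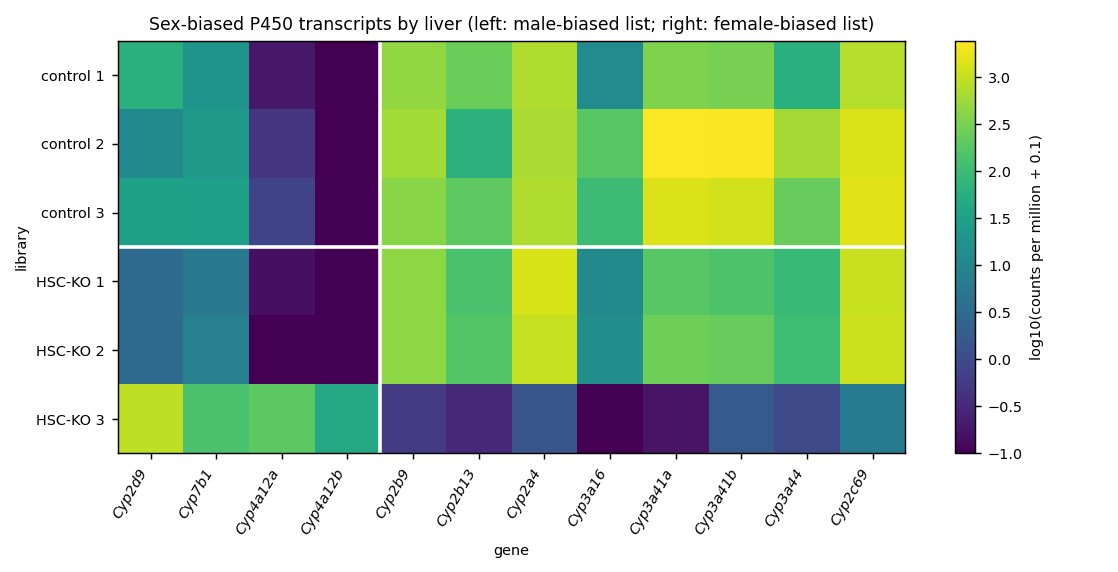
Levels of 12 sex-biased P450s in the 6 livers (rows: libraries; columns: genes, male-biased list left of the white line; colour: log10 of CPM plus 0.1). The bottom line, HSC-KO replicate 3, is bright for the 4 male-biased genes and dark for the 8 female-biased genes, the opposite of the other 5 livers.

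Of the 8 female-biased members, 0 were DEGs with edgeR in all 6 livers or without replicate 3, and 0 with DESeq2 in all 6 livers. In all 6 livers 1 (*Cyp3a41b*) had an unadjusted p below 0.05 (12.9% of all genes). *Cyp3a41a*, a female-specific Cyp3a, had 341, 2437 and 1435 CPM in controls and 179, 262 and 0.0696 CPM in HSC-KO livers. The HSC-KO values were all below the controls, but the controls differed widely among themselves and neither of these edgeR fits passed (log2 fold change -3.25 ± 1.75 (SE), adjusted p = 0.521; without replicate 3 -2.67, adjusted p = 0.140). With the *Xist* level as a covariate, which in liver nearly marks replicate 3 alone, edgeR called *Cyp3a41a* (-2.30, adjusted p = 0.0399) and *Cyp3a16* (-1.96, adjusted p = 0.0158) lower, where 2.78% of all genes were called. Levels of this kind were among the reasons for setting replicate 3 apart, so these calls are a description and no independent evidence. *Cyp3a41b* is 99.87% identical to *Cyp3a41a* over the aligned coding sequence and followed it with 302, 2268 and 1237 and 147, 231 and 1.63 CPM. By contrast *Cyp2b9*, without replicate 3, had a log2 fold change of -0.17 (adjusted p = 0.777) and *Cyp2c69* of -0.21 (adjusted p = 0.826).

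Leaving out replicate 3 reversed the log2 fold changes of the 3 tested male-biased members, while *Cyp4a12b* was not tested. *Cyp4a12a* moved from 7.43 (adjusted p = 0.313) to -3.80 (adjusted p = 0.301). *Cyp2d9*, a testosterone hydroxylase, had 61.3, 12.7 and 32.3 CPM in controls and 3.36, 3.34 and 938 CPM in HSC-KO livers. The first 2 HSC-KO livers were under all controls and the third far above, so that the log2 fold change was 3.15 (adjusted p = 0.591) in all 6 and -3.40 (adjusted p = 0.0424) without replicate 3. Levels of this kind were among the reasons for leaving that library out, so the p-value without it is no independent evidence. *Cyp7b1*, the oxysterol hydroxylase, behaved like *Cyp2d9*, with 18.4, 23.4 and 29.6 CPM and 5.94, 8.07 and 131 CPM, and moved from 1.03 (adjusted p = 0.787) to -1.76 (adjusted p = 0.0159). The same limit holds for its p-value without replicate 3.

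*Cyp2d40* had 54.1, 61.5 and 50.9 CPM and 12.9, 20.6 and 43.9 CPM, lower in every HSC-KO liver, and was a DEG with edgeR without replicate 3 (-1.73, adjusted p = 0.0108, against -1.11 and 0.275). DESeq2 called it in all 6 livers (-1.10, adjusted p = 0.0323). The *Xist* covariate gave like values, since in liver it nearly marks replicate 3 alone and is no check apart from leaving that library out: edgeR called *Cyp2d9* (-3.32, adjusted p = 0.00917), *Cyp7b1* (-1.78, adjusted p = 0.0390) and *Cyp2d40* (-1.72, adjusted p = 0.0139) lower. These p-values are likewise a description and no independent evidence. Without replicate 3, 2 HSC-KO livers were compared with 3 controls.

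**Figure D3:**
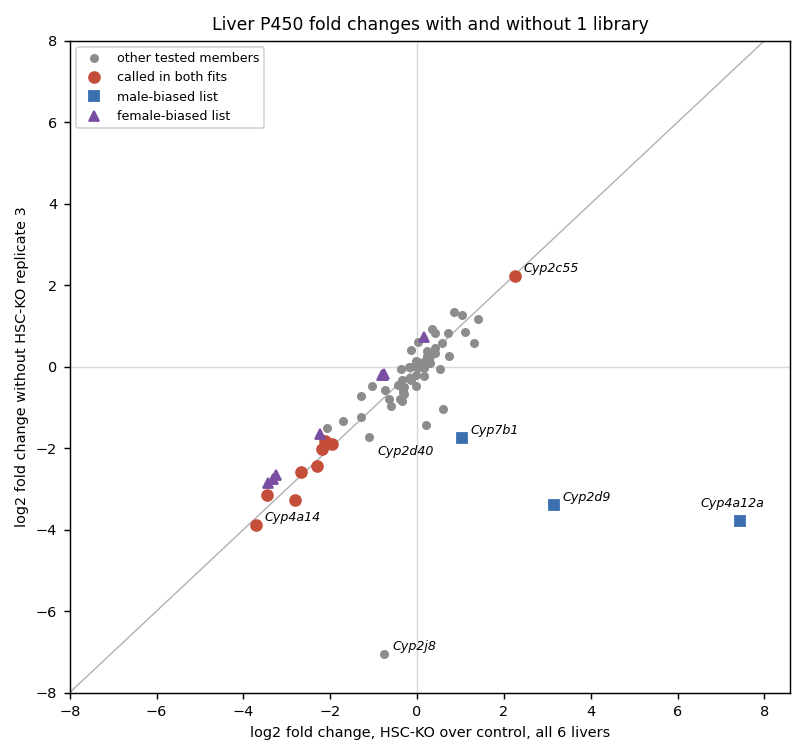
Log2 fold change of each of the 74 tested P450s, HSC-KO over control, in all 6 livers (x axis) and without HSC-KO replicate 3 (y axis), with the diagonal as equality. The 9 members called in both fits lie near the diagonal, while *Cyp2d9*, *Cyp4a12a* and *Cyp7b1* lie in the quadrant of opposite signs.

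Untested members were those without enough counts in at least 3 libraries. In liver 25 of the 99 were not tested, 16 of them with 0 counts in all 6 libraries, among them *Cyp24a1* and *Cyp19a1*. The highest single count among the untested was 3165, that of *Cyp4a12b* in replicate 3. Near-identical copies were common: 26 members fell into 10 groups with at least 95% identity over the aligned coding sequence, and how multi-mapping reads were counted is not given in the sources used here. Values of single genes within these groups are accordingly less certain than those of *Cyp2e1*, *Cyp1a2*, *Cyp4a14* and *Cyp4b1*, which have no such copy. *Cyp2c38* is 94.22% identical to *Cyp2c39*, just under that limit.

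In sorted ECs, 35 members could be tested and 7 were DEGs, 3 lower and 4 higher (20.0%), where 13.7% of 16053 genes were DEGs (6.01% lower, 7.68% higher). The 2 groups did not overlap for 17 of the 35 (48.6%), against 40.4% of all genes. Per kilobase of exon *Cyp4b1* was the highest member in control ECs, with 849.6 CPM per kb. It had 1609, 1936 and 2205 CPM in controls and 574, 421 and 320.5 CPM in HSC-KO ECs, with a gap between the groups (log2 fold change -2.13 ± 0.26 (SE), adjusted p = 0.00141). The control EC mean was 79.2 times the control liver mean, and the 12 endothelial markers had a median ratio of 31.6 (14.5 to 77.7); the tables were normalised separately, so no test was made between them. *Cyp26b1*, the retinoic acid hydroxylase, had 44.7 times its liver level, with 433, 1354 and 2061 CPM and 40.6, 633 and 418 CPM. Its groups overlapped and it was not a DEG (log2 fold change -1.82 ± 0.91 (SE), adjusted p = 0.212), but passed with a replicate block (-2.27, adjusted p = 0.0264).

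*Cyp27a1* fell in ECs from 4.20, 5.05 and 7.17 CPM to 0.615, 0.740 and 1.09 CPM (log2 fold change -2.75 ± 0.35 (SE), adjusted p = 0.00174). *Cyp2c50* had 0.635, 0.566 and 0.353 CPM in controls and 0 counts in all 3 HSC-KO libraries, at least 12.4-fold lower when each HSC-KO library is set to 3 counts (adjusted p = 0.00615). The sum with its near-copies *Cyp2c37* and *Cyp2c54* was 0.720, 0.566 and 0.353 CPM in controls and 0.159, 0 and 0.477 CPM in HSC-KO ECs, which overlapped and gave no call (log2 fold change -1.35, adjusted p = 0.474). *Cyp27a1* is also a macrophage gene, and the summed macrophage markers were 275 to 370 CPM in control and 64.8 to 108 CPM in HSC-KO ECs (8 of 11 tested lower). *Mertk* alone made 200 to 311 and 58.7 to 104 CPM of these sums, and the other 11 markers summed to 58.9 to 74.9 and 4.46 to 6.07 CPM. The sort took CD45- cells. *Ptprc*, which encodes CD45, was at 0.476 to 0.869 CPM in control and 0.0856 to 0.265 CPM in HSC-KO ECs, with *Clec4f*, *Vsig4* and *Timd4* at 0 in HSC-KO ECs. The part of these transcripts in the fall of *Cyp27a1* was not tested. Hepatocyte markers summed to 86.5 to 144 and 83.1 to 108 CPM, and without *Trf*, whose range moved from 22.4–41.8 to 34.8–50.1 CPM, to 64.1 to 118 and 47.6 to 68.8 CPM. Their median level was 0.111%, 0.0763% and 0.107% of the same markers' liver level in control ECs and 0.0371%, 0.0479% and 0.0835% in HSC-KO ECs. The mean of *Cyp2c50* in control ECs was 0.819 times its liver level scaled by that share, and the part of hepatocyte transcripts in its fall was not tested. Endothelial markers summed to 15219 to 16345 and 10876 to 12392 CPM.

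Among the 4 that rose, *Cyp1a1* had 5.47, 38.5 and 23.6 CPM in controls and 174, 3618 and 196 CPM in HSC-KO ECs. Replicate 2, a library with Y-linked counts, was far above the other 2, yet all 3 exceeded every control (log2 fold change 5.88 ± 1.46 (SE), adjusted p = 0.0271). With 1 library left out the log2 fold change ranged from 3.04 to 6.51. The call was lost without control 1, 2 or 3 (adjusted p = 0.0844, 0.0651 and 0.092), and DESeq2 gave no p-value for it. *Cyp1b1*, of the same family, had 4.14, 2.57 and 0.557 and 10.2, 26.3 and 5.64 CPM, also higher without overlap but not called (log2 fold change 2.53 ± 0.78 (SE), adjusted p = 0.0586). It was called by DESeq2 (adjusted p = 0.0339), by library size alone (0.0389), with at least 10 counts in every library (0.0445) and with a replicate block (0.0192). *Cyp39a1* rose from 2.94, 3.19 and 4.10 to 6.37, 20.4 and 13 CPM (log2 fold change 1.96 ± 0.40 (SE), adjusted p = 0.0133), a call lost without control 1 (0.0553). *Cyp2u1* rose from 7.74, 11.2 and 7.86 to 20.2, 15.4 and 30.7 CPM (log2 fold change 1.31 ± 0.28 (SE), adjusted p = 0.0155) and lost the call without control 1 (0.0634), control 3 (0.0622) or HSC-KO 3, where the log2 fold change was 0.999. *Cyp2j9*, an arachidonic acid epoxygenase, rose from 6.03, 5.81 and 6.59 to 12.7, 18.1 and 12.5 CPM (log2 fold change 1.23 ± 0.20 (SE), adjusted p = 0.00471).

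The calls of *Cyp4b1*, *Cyp27a1*, *Cyp2c50* and *Cyp2j9* were kept in all 6 fits that left out 1 EC library, that of *Cyp2c50* as a single gene and not in the sum with its near-copies. *Cyp20a1*, a P450 without an established substrate, had 47.9, 51.3 and 50.8 and 35, 31.7 and 27.5 CPM and passed on p but not on fold (log2 fold change -0.67 ± 0.14 (SE), adjusted p = 0.0125). *Ly6c2*, a monocyte gene that ECs can also express, was higher in HSC-KO ECs, the monocyte and neutrophil list summing to 0.109 to 0.305 CPM in controls and 62.3 to 77.1 CPM in HSC-KO ECs.

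**Figure D4:**
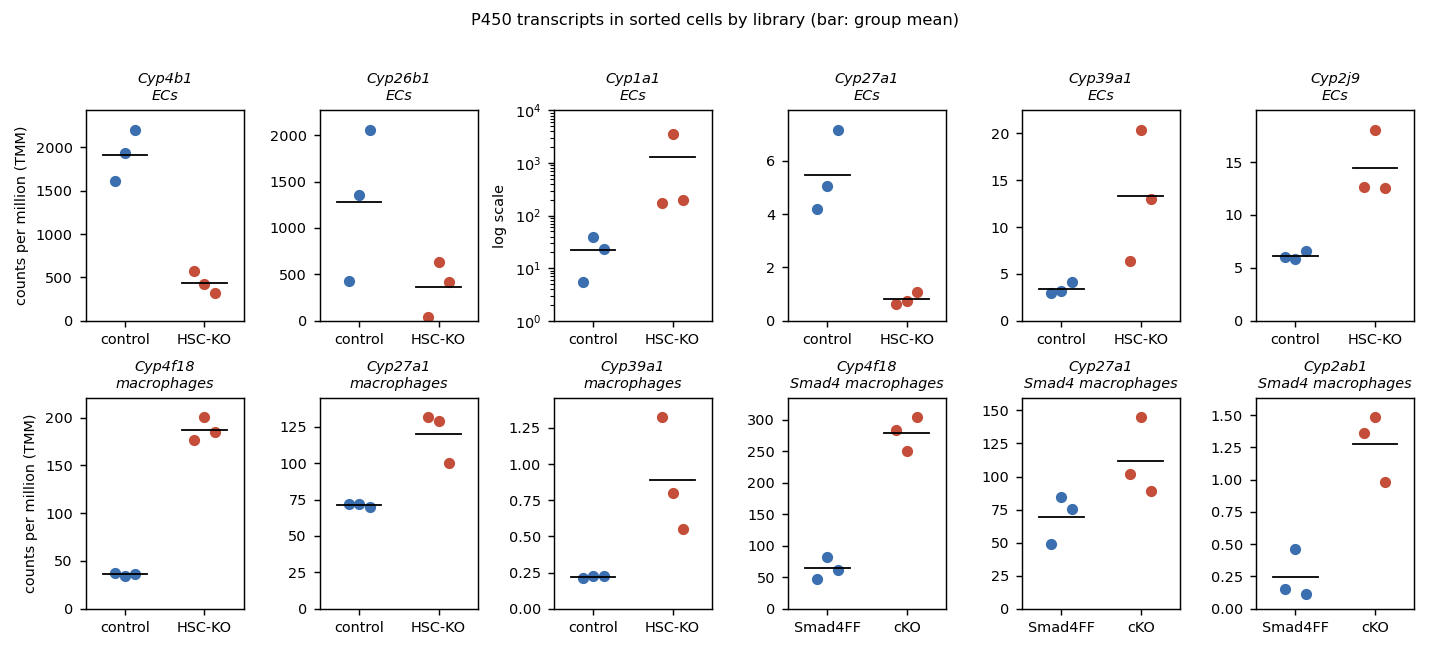
P450 transcripts in sorted ECs (top) and macrophages (bottom) by library (y axis: CPM after TMM scaling, on a log scale for *Cyp1a1* and from 0 elsewhere; points: libraries; bars: group means). *Cyp4f18* lies at 34.3 to 37.5 CPM in control and 176 to 200.2 CPM in HSC-KO macrophages, and at 47.4 to 82.7 and 250.1 to 303 CPM in the *Smad4* set.

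In macrophages of *Gdf2/Bmp10* HSC-KO mice, 53 members could be tested and 8 were DEGs, 6 lower and 2 higher (15.1%), where 11.7% of 16337 genes were DEGs (5.34% lower, 6.32% higher). The groups did not overlap for 16 of the 53 (30.2%), against 40.3% of all genes. Macrophage markers summed to 41540 to 42659 CPM in controls and 19994 to 21637 CPM in HSC-KO libraries. *Clec4f* went from 11029.5–12234.8 to 3.26–16.6 CPM and *Timd4* from 665–718 to 20.0–50.9 CPM. *C1qa* overlapped, and *Ptprc* rose from 515–571 to 806–935 CPM. The paper proposes that monocyte-derived cells replaced embryonic Kupffer cells in these mice. The part of this change in the P450 values was not tested. *Cyp4f18* (chr8:71988482-72009626), which inactivates leukotriene B4 in myeloid cells, had 37.5, 34.3 and 36.7 CPM in controls and 176, 200.2 and 185 CPM in HSC-KO mice. Replicates were within a narrow range in both groups, the log2 fold change was 2.37 ± 0.11 (SE; adjusted p = 3.68e-05), and it stayed between 2.32 and 2.41 when any 1 library was left out. Exons of the antisense gene *Zfp961* overlap 181 bases of it. The same gene had 0.724, 0.769 and 0.632 CPM in control and 0.348, 0.786 and 0.794 CPM in HSC-KO whole liver, where it did not pass (log2 fold change -0.14 ± 0.46 (SE), adjusted p = 0.952).

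*Cyp27a1* was the highest P450 of control macrophages per kilobase of exon (32.8 CPM per kb), ahead of *Cyp4f18* (19.5). It had 71.9, 72.1 and 70.1 CPM in controls and 131, 129 and 100.1 CPM in HSC-KO mice. It was higher without overlap and passed on p at a log2 fold change under 1 (log2 fold change 0.75 ± 0.13 (SE), adjusted p = 0.00701). *Cyp39a1* rose from 0.213, 0.224 and 0.227 to 1.32, 0.797 and 0.548 CPM (log2 fold change 2.00 ± 0.56 (SE), adjusted p = 0.0432), but its call was lost on removal of any 1 library (adjusted p 0.054 to 0.188), with a replicate block (0.115) and with an *Xist* covariate (0.0506). *Cyp4v3*, *Cyp4f16*, *Cyp4f13* and *Cyp20a1* were expressed at 15.2 to 59.1 CPM across the control libraries and did not pass the test.

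The 6 that fell were *Cyp26b1* and 5 genes that are high in liver. *Cyp26b1* had 1.49, 28.7 and 1.84 CPM in controls and 0.125, 0.0629 and 0 CPM in HSC-KO macrophages, with control 2 far above the other 2 (log2 fold change -7.39 ± 1.58 (SE), adjusted p = 0.0161), and its adjusted p was 0.0538, 0.065 and 0.0502 without HSC-KO 1, 2 or 3, and DESeq2 gave no p-value for it. Its log2 fold change ranged from -8.32 to -4.70 with 1 library left out. *Cyp2e1* had 3.58, 10.4 and 19.2 and 0.308, 1.06 and 1.01 CPM (log2 fold change -3.80 ± 0.71 (SE), adjusted p = 0.00904), and *Cyp1a2* 1.60, 3.09 and 7.13 and 0.467, 0.199 and 0.285 CPM (log2 fold change -3.63 ± 0.64 (SE), adjusted p = 0.00752). Both calls stood whichever library was removed. *Cyp2a5* had 0.508, 0.624 and 1.43 and 0, 0.0734 and 0.0986 CPM (adjusted p = 0.0475), *Cyp2c44* 0.461, 1.15 and 1.87 and 0.308, 0.115 and 0.186 CPM (0.0420), and *Cyp2c67* 0.627, 1.18 and 1.19 and 0, 0 and 0.0876 CPM (0.0344). Removal of 1 library ended the call of *Cyp2a5* in all 6 cases (adjusted p 0.0549 to 0.141), of *Cyp2c44* in all but control 1 (0.0718 to 0.133) and of *Cyp2c67* without control 2, control 3, HSC-KO 1 or HSC-KO 2 (0.0733 to 0.0942). A replicate block ended the calls of *Cyp2a5* (adjusted p = 0.0651) and *Cyp2c44* (0.117), and an *Xist* covariate that of *Cyp2c44* (0.0665). Summed with near-copies, *Cyp2a5* (with *Cyp2a4*) had a log2 fold change of -1.05 (adjusted p = 0.517) and *Cyp2c67* (with *Cyp2c40*, *Cyp2c68* and *Cyp2c69*) of -1.08 (adjusted p = 0.456), and neither sum was called. The sum of *Cyp3a11*, *Cyp3a41a*, *Cyp3a41b* and *Cyp3a44*, none of which was called alone with edgeR, was called lower (log2 fold change -1.62, adjusted p = 0.0393). *Cyp2c44* thus fell here and was higher without overlap in whole liver, and *Cyp2c67* overlapped there.

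The markers of other cells are given beside these values. Hepatocyte markers summed to 3409 to 4611 CPM in control and 4758 to 6039 CPM in HSC-KO macrophages. *Trf*, an iron carrier that was high in these macrophages, made 3135 to 3580 and 4305 to 5646 CPM of these sums. The other 11 markers summed to 274, 797 and 1031 CPM in controls and 392, 452 and 598 CPM in HSC-KO macrophages, and the median level of the 12 was 0.322%, 1.14% and 1.39% of their liver level against 0.403%, 0.340% and 0.554%. On both measures 2 of the 3 controls were above every HSC-KO library and control 1 was below all 3. *Alb* alone had 149.7, 389 and 548 and 221, 268 and 376 CPM. Set against *Alb* in the same library, *Cyp2e1* had 23.9, 26.8 and 35 counts per 1000 *Alb* counts in control macrophages and 1.39, 3.95 and 2.68 in HSC-KO macrophages. In whole liver the same ratio was 63.5, 57.2 and 49.4 in controls and 3.79, 3.82 and 10.3 in HSC-KO mice. For *Cyp1a2* it was 10.7, 7.93 and 13 and 2.11, 0.743 and 0.758 in macrophages and 7.58, 6.10 and 9.10 and 0.485, 1.46 and 1.55 in liver. Both ratios thus were lower in HSC-KO libraries of either kind, with no overlap. *Alb* itself was higher in HSC-KO liver without overlap (79912–99460 to 105520–148388 CPM), which by itself lowers the liver ratios. Among the hepatocyte markers in macrophages, *Cps1* fell from 3.499–14.9 to 0.336–0.482 CPM without overlap. *Trf* rose there without overlap, and the rest of the list overlapped. In liver *Cps1* rose from 2893–5012 to 5989–7427 CPM without overlap. *Cyp2f2* had 25.4, 29.3 and 8.23 and 21.1, 15.4 and 10.5 counts per 1000 *Alb* counts in macrophages, which overlapped.

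Sex-biased P450s appeared at low levels in the macrophage libraries as well. *Cyp2d9* had 3.94, 11.8 and 1.31 CPM in controls and 0.900, 0 and 0.175 CPM in HSC-KO mice. Control replicates 1 and 2 and HSC-KO replicate 1 had Y-linked counts, and in both groups the libraries with *Xist* counts were lower than those with Y-linked counts. *Cyp2c69*, of the female-biased list, had 0.0828, 0 and 3.58 and 0, 0.902 and 1.38 CPM, highest in the 3 libraries with *Xist* counts. Endothelial markers summed to 564 to 776 CPM in control and 76.1 to 150 CPM in HSC-KO macrophages (5 of 12 lower). Of these sums *Cdh5*, which Kupffer cells also express, and *Stab2* together made 402 to 534 and 19.6 to 38.2 CPM, and the other 10 markers summed to 72.5, 242 and 172 CPM in control and 76.3, 56.5 and 112 CPM in HSC-KO macrophages, which overlapped. *Cyp4b1*, the main EC member, had 5.21, 30.7 and 22.5 and 0.194, 0.346 and 3.60 CPM (log2 fold change -3.82 ± 1.14 (SE), adjusted p = 0.0551). It was called by DESeq2 (adjusted p = 0.0170), with the *Xist* covariate (0.0498), with at least 10 counts in every library (0.0371) and with a replicate block (0.0214). The part of hepatocyte and EC transcripts in the falls of P450s in macrophages was not tested.

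**Figure D5:**
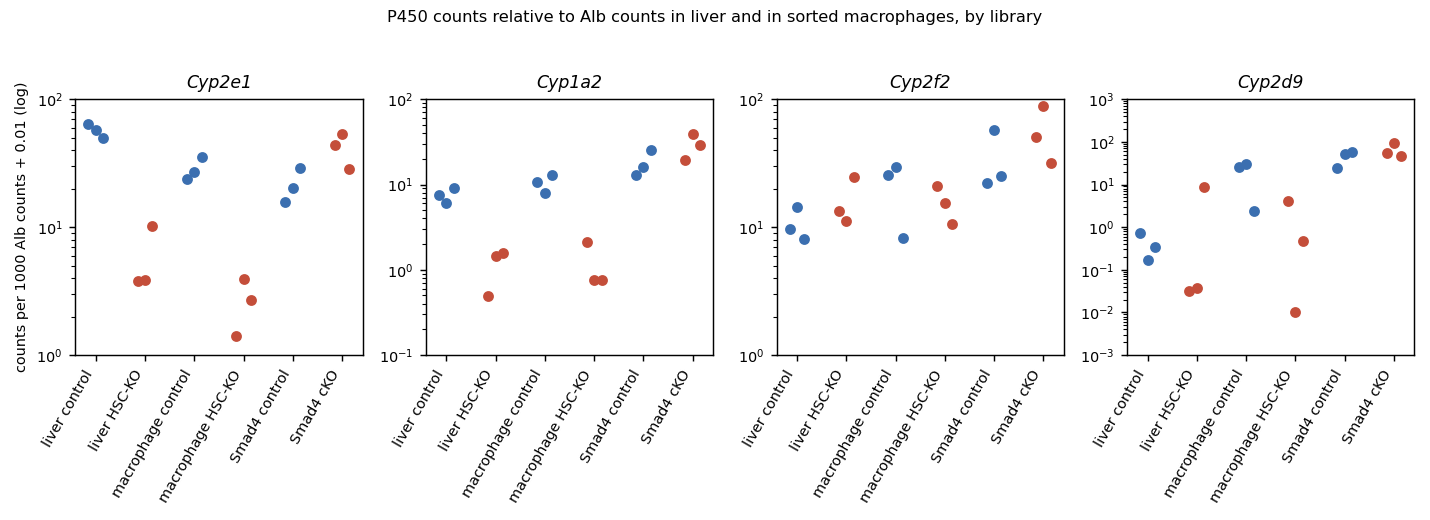
Counts of 4 P450s per 1000 *Alb* counts, plus 0.01, in each library (y axis: log scale; x axis: group; points: libraries). For *Cyp2e1* the HSC-KO libraries of liver (3.79 to 10.3) and of macrophages (1.39 to 3.95) lie under their controls (49.4 to 63.5 and 23.9 to 35), and the *Smad4* groups partly overlap.

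In the *Smad4* set, 53 members could be tested and 2 were DEGs, both higher (3.77%), where 5.43% of 17517 genes were DEGs (2.76% higher). The groups did not overlap for 5 of the 53 (9.43%), against 29.4% of all genes. Macrophage markers summed to 42054 to 50880 CPM in Smad4FF and 21394 to 26049 CPM in cKO macrophages. Among them *Clec4f* went from 11519.9–15199.4 to 0.0345–1.47 CPM, while *C1qa* overlapped. The part of this change in the P450 values was not tested. *Cyp4f18* had 47.4, 82.7 and 61.5 CPM in Smad4FF and 283, 250.1 and 303 CPM in Smad4FF cKO macrophages. The groups were far apart (log2 fold change 2.13 ± 0.21 (SE), adjusted p = 0.00133), and the fold change ranged from 1.93 to 2.34 on the log2 scale with the call kept when any 1 library was left out. *Cyp2ab1*, a P450 of unassigned function, had 0.155, 0.465 and 0.116 and 1.36, 1.48 and 0.979 CPM (log2 fold change 2.38 ± 0.57 (SE), adjusted p = 0.0482), and of the fits that left out 1 library only that without Smad4FF replicate 2 kept its call (adjusted p 0.0734 to 0.153 on removal of any other library). A replicate block also ended it (0.0513). *Cyp27a1* had 49, 84.5 and 75.6 and 102, 145 and 89.3 CPM, higher without overlap but not called (log2 fold change 0.68 ± 0.25 (SE), adjusted p = 0.169). *Cyp2e1* had 3.27, 4.39 and 3.40 and 2.59, 8.09 and 1.41 CPM, with both extremes in the cKO group (log2 fold change 0.13 ± 0.58 (SE), adjusted p = 0.928), and *Cyp1a2* 2.66, 3.45 and 2.98 and 1.14, 5.87 and 1.46 CPM (log2 fold change -0.10 ± 0.59 (SE), adjusted p = 0.946). *Cyp26b1* had 89.8, 0.277 and 73.5 and 41.2, 21.7 and 204 CPM, and *Cyp4b1* 291, 83.2 and 272 and 272, 395 and 202 CPM, beside endothelial markers summing to 858 to 2215 CPM in Smad4FF and 1599 to 1963 CPM in cKO macrophages (496 to 1621 and 1353 to 1658 CPM without *Cdh5* and *Stab2*). Both were lowest in Smad4FF replicate 2, which also had the lowest sum of endothelial markers. In the cKO group replicate 3 had the lowest such sum (1599 CPM, against 1963 and 1947 CPM). There *Cyp4b1* was lowest but *Cyp26b1* highest of the 3 cKO libraries.

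The difference between the 2 macrophage fold changes, that of *Gdf2/Bmp10* loss minus that of *Smad4* loss, was tested directly in 58 members. With edgeR 0 of them passed, where 2.61% of 18149 genes did, 13 had an unadjusted p below 0.05 (16.3% of all genes), and DESeq2 called 11 of 61 (5.85% of all genes), all with the lower value in the *Gdf2/Bmp10* set. The smallest adjusted p was that of *Cyp2e1*, with a difference of -3.88 (adjusted p = 0.0619), followed by *Cyp1a2* at -3.48 (0.0777). For *Cyp4f18* the 2 fold changes were 2.37 and 2.13 on the log2 scale.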

How the data were processed

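RNA-seq was made from whole liver, sorted ECs and sorted liver macrophages of mice, 24 libraries in 8 groups of 3, which the study calls independent biological replicates. The authors deposited whole-number counts per gene, 1 table per comparison, and per the submitters' processing notes used FastQC, HISAT2, featureCounts and DESeq2 with GRCm38 (mm10). Strand setting, treatment of multi-mapping reads and annotation release are not given in the sources used here. Groups came from the labels. Each table was fitted alone with edgeR 4.0.16 (R 4.3.3): filterByExpr (minimum count 10, minimum total 15), TMM factors, quasi-likelihood F-test, Benjamini-Hochberg adjustment over all genes tested, no covariate, with thresholds of 0.05 and an absolute log2 fold change of 1. Fold changes of genes with few counts depend on edgeR's prior count. Precision was set by 60911527 to 110879155 counts per library and 3 libraries per group. The counting floor of 3 counts covers counting error only. Scripts were tested on simulated data. Coordinates and exon lengths are from GENCODE vM21 (GRCm38), in which 98 members were found by symbol and *Cyp2c44* by a synonym; promoter sequences are from RefSeq (GRCm38.p6), which held 76 of the 99.

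Members named are those called in liver in both fits (up to 15 per direction) or in 1 fit (up to 6 of each kind), those called in another comparison (up to 10 in each) and, whatever their result, the role lists (bile acid and sterol, retinoid, vitamin D, steroidogenic, CYP1, pericentral, periportal, male- and female-biased, CAR and PXR targets, PPARα targets). Further genes were picked with their values in view. The members and all gene lists were chosen with earlier results of these data known. Alternatives were DESeq2 1.42.0, DESeq2 size factors, library size without TMM, other filters on low counts, a test against the fold threshold itself, near-identical copies summed, replicate number as a block, an *Xist* covariate and leaving out each library in turn. Replicate numbers were not used as pairs in the main fits. Correlations of same-numbered deviations were 0.015, 0.049 and 0.013 in liver, 0.103, 0.117 and 0.033 in ECs, 0.162, -0.107 and 0.060 in *Gdf2/Bmp10* and -0.0080, 0.099 and -0.099 in *Smad4* macrophages. No comparison had all 3 above 0.1. With 3 libraries per group these values cannot exclude a pairing of the mice.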

Additional observations from a re-analysis of the deposited data

How the results depend on the processing

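Counts of P450 DEGs moved as follows. The share of all genes called under the same setting stands in parentheses. Testing against the fold threshold itself gave 5 in liver (0.83%), 3 in ECs (6.83%), 4 in *Gdf2/Bmp10* macrophages (5.55%) and 1 in the *Smad4* set (1.8%). DESeq2 gave 18 in *Gdf2/Bmp10* macrophages (13.2%), 14 in liver (4.07%) and 11 for the difference of macrophage fold changes (5.85%). All genes with at least 1 count gave 5 in *Gdf2/Bmp10* (7.4%) and 1 in *Smad4* macrophages (3.18%), and DESeq2 size factors gave 1 in the latter (5.44%). With 1 library left out the counts ranged from 6 to 12 in liver, 5 to 8 in ECs, 4 to 15 in *Gdf2/Bmp10* macrophages (15 without control 1, 11.6%), 1 to 3 in the *Smad4* set, 5 to 7 for liver members held without HSC-KO 3 and 0 to 3 for the difference. Within a comparison, replicate numbers share no animal by the labels. A block for replicate number gave 9 in liver (1.58%), 9 in ECs (12.8%), 6 in *Gdf2/Bmp10* (9.79%) and 1 in *Smad4* macrophages (4.09%). An *Xist* covariate gave 14 in liver (2.78%), 9 of them shared with the 10, and summing near-identical copies 7 (2.48%). In liver the calls of *Cyp2c55* and *Cyp4a31* were lost with the block, and *Cyp7a1* gained one (1.10, adjusted p = 0.0299). The causes of these changes were not tested.

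Signs turned in members that were not called. With the block they were -0.70 for *Cyp17a1*, 0.054 for *Cyp26b1*, -0.83 for *Cyp2a4*, -1.27 for *Cyp2d9* and -0.47 for *Cyp7b1* in liver, and -0.24 for *Cyp2e1* in the *Smad4* set. With the *Xist* covariate they were -0.067 for *Cyp26c1*, -3.32 for *Cyp2d9*, -0.26 for *Cyp2j9*, 0.039 for *Cyp3a13*, -3.44 for *Cyp4a12a*, -1.78 for *Cyp7b1* and -0.0062 for *Cyp8b1*. By library size alone *Cyp17a1* was -0.070. Leaving out 1 liver library gave log2 fold changes of -0.68 to 0.83 for *Cyp17a1*, -0.070 to 1.17 for *Cyp26c1*, -0.47 to 0.74 for *Cyp2a4*, -0.17 to 1.61 for *Cyp2b10*, -0.20 to 0.20 for *Cyp2c67*, -3.40 to 3.83 for *Cyp2d9*, -0.24 to 0.42 for *Cyp2j9*, -0.27 to 0.25 for *Cyp3a13*, -3.80 to 8.17 for *Cyp4a12a*, -0.32 to 0.16 for *Cyp4f18*, -1.76 to 1.55 for *Cyp7b1* and -0.12 to 0.52 for *Cyp8b1*. In the *Smad4* set it gave -0.80 to 1.25 for *Cyp26b1* and -0.88 to 0.53 for *Cyp2e1*. For named genes, with 1 library left out 374 values kept direction and side of the threshold, 54 lost a call, 4 gained one and 24 turned sign. Under other settings these were 584, 30, 16 and 14, leaving out values for which DESeq2 gave no p-value. A planned comparison by protein identity was not run, since no protein table was used here, and coding-sequence identity took its place.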
